A study of Drosophila melanogaster with 15 samples.

Results

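Nuclear RNA of photoreceptors from male flies at day 25 was compared with that at day 10, to ask which genes had changed in expression by an age that lies between young adults and old flies. The comparison used 6 of the 15 RNA-seq libraries in the study, 3 at each age. Genes were kept when their level was above 1 CPM (gene counts scaled to a common library total) in at least 3 of these 6 libraries. This gave 9946 of the 17558 genes counted.

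The study profiled affinity-enriched photoreceptor nuclei at 5 ages, which were 10, 20, 25, 30 and 40 days from eclosion, the emergence of the adult from the pupal case. All flies were males labelled WT that carried the transgenes UAS-GFP-Msp300KASH at attP2 and rh1-GAL4 in a w and ry[506] background, so both ages compared here shared this genotype and differed by label in age alone. They were kept on a light and dark cycle and moved to fresh food at regular intervals. The Msp300KASH domain holds GFP on the outer nuclear membrane, and rh1-GAL4 drives it in the outer photoreceptors R1 to R6, so that nuclei could be pulled from homogenates of pooled heads with an antibody against GFP. The driver was also active in antennae by the study's own account, the RNA came from nuclei alone, and no untagged head sample of the same ages was used here. The study calls the 3 samples of an age biological replicates.

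Outer photoreceptors detect light through the rhodopsin Rh1, the product of ninaE, which sets off a G protein and phospholipase C cascade that opens the TRP channels. Each response brings calcium into the cell and is costly in energy, and these neurons are not replaced during adult life. Changes that are widely described in aging neurons include more expression of stress response and repair genes and less of genes for synapses and excitability.

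The 6 libraries held 8406619 to 19819118 gene counts, so that 3 counts corresponded to 0.151 to 0.357 CPM. Rh1 transcripts led all others, with ninaE ranked 1 of 9029 protein-coding genes in CPM per kb of exon, Arr2 ranked 2 and trp 4. Among genes of other cell types, the glial gene repo ranked 3180, the interneuron gene Gad1 1699 and the muscle gene Mhc 1043. Markers of R7 and R8 were also high on this scale, with Rh4 ranked 6, Rh3 10 and Rh6 14. Day 10 replicate 3 was set off from the 5 others on the second principal component (41.01 against -13.8 to 4.74). It also had 60.7 pairs on no annotated feature per 100 gene counts, against 103 and 100.4 in the other day 10 libraries and 67.6 to 76.0 at day 25. This ratio averaged 88.2 ± 23.8 at day 10 and 70.6 ± 4.72 at day 25 (SD, n = 3 each, two-sided exact permutation p = 0.4). The mitochondrially encoded share of gene counts was 1.84% ± 0.467 and 1.57% ± 0.0971 (SD, n = 3 each, exact permutation p = 0.6), in a design whose smallest possible p is 0.1. Among markers of other cell types, muscle genes had higher values at day 25. All 8 tested had positive log2 changes with a median of 0.50, none was past the threshold, and their summed level was 674 to 1459.8 CPM at day 10 and 1608 to 1797 CPM at day 25. Of 4 male germline genes tested none passed, with negative log2 changes in sunz, sowi and CG15177 and a positive one in betaTub85D (1.04, adjusted p = 0.477). The summed level of that list was 1698 to 3031 CPM at day 10 and 767 to 1348 CPM at day 25 and 5 of its markers, among them dj and Mst87F, were at 0. The part of either in the results was not tested. In bulk nuclei, fewer cells of a type and less RNA per cell cannot be told apart.

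By day 25, 104 genes had changed, or 1.05% of those tested with edgeR's quasi-likelihood test at a Benjamini-Hochberg adjusted p under 0.05. Expression was higher at day 25 in 77 of them (0.774% of tested genes) and lower in 27 (0.271%). Higher genes had a median log2 change of 1.16, lower genes one of -0.84, and all genes tested one of 0.00. The change was over 2-fold in 48 of the higher genes and 8 of the lower genes. Some higher genes, such as CG43672, CG15196, CR42546 and DptB, were mostly or wholly under 1 CPM at day 10. They entered the test through day 25, so their calls are no support for a difference. In each of the 104 genes the 3 libraries of one age lay above the 3 of the other, which was so for 11.0% (higher) and 8.93% (lower) of all genes tested. Scaled by library size alone in place of TMM, which moved the median of all genes up to 0.12, 175 genes were higher and 23 lower. The count depended on single libraries. It was 20 without day 10 replicate 1, 45 without day 10 replicate 2, 238 without day 10 replicate 3, 26 without day 25 replicate 1, 92 without day 25 replicate 2 and 31 without day 25 replicate 3. With the no-feature ratio as a covariate 102 genes passed, 68 of them among the 104.

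**Figure D1:**
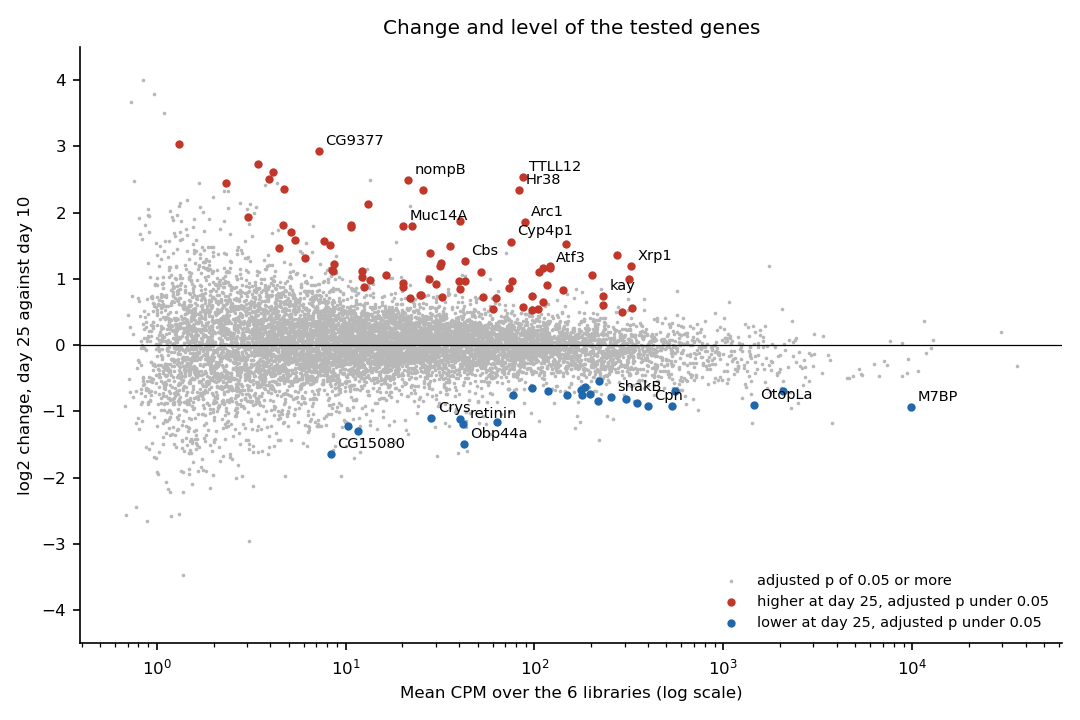
Log2 change from day 10 to day 25 against mean CPM over the 6 libraries (log scale), with one point for each of the 9946 genes tested. The 77 genes higher at day 25 (red) lie above the line at 0 and the 27 lower genes (blue) below it, with M7BP and OtopLa among those farthest to the right.

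In 16 genes the call held whichever of the 6 libraries was left out, 13 higher and 3 lower. The higher ones were TTLL12, nompB, asRNA:CR45198, CR43281, Arc1, CG10126, Muc14A, Cyp4p3, CG31100, lncRNA:CR31781, Xrp1, blow and bnl. The lower ones were Cpn, ctp and CG6329. These are the changes in the comparison that rest on no single library of days 10 and 25.

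Genes regulated by neuronal activity and stress were among those that rose. The list of 23 tested had 4 members past the threshold, all higher, and a median log2 change of 0.34, against 1.05% called and a median of 0.00 over all genes. The list holds genes that the study singled out on these libraries, among them kay and onecut, so its count is no independent evidence of a direction. Arc1 encodes a Gag-like protein that forms capsids and carries its own RNA across synapses, and its expression follows neuronal activity. Levels of Arc1 (FBgn0033926, 2R, 14357927 to 14360297, with this and other positions on the BDGP6 assembly) were 31.0, 34.8 and 49.8 CPM at day 10 and 157, 124 and 139 CPM at day 25, in the order of replicates 1, 2 and 3 used throughout. The lowest day 25 library, at 124 CPM, was far above the highest day 10 library, at 49.8 CPM. The log2 change was 1.85 ± 0.215 (SE, adjusted p = 0.000716), a 3.61-fold rise, and the adjusted p stayed at 0.000599 to 0.0127 when single libraries were left out.

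Hr38, the fly member of the NR4A nuclear receptors and an activity-regulated gene in insects, stood at 29.7, 29.2 and 23.3 CPM at day 10 and 124, 141 and 151 CPM at day 25. The day 25 libraries were close to each other and far above all day 10 libraries. Its log2 change was 2.34 ± 0.488 (SE, adjusted p = 0.028), and it was not past the threshold without day 10 replicates 1 or 2 or day 25 replicates 1, 2 or 3 (adjusted p 0.0559 to 0.124). Hr38 (FBgn0014859, 2L, 20683462 to 20714588) varied more within other ages, at 41.1 ± 23.9 CPM at day 20 and 64.4 ± 42.5 CPM at day 40 (SD, n = 3 each), and these libraries enter the fit.

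Both bZIP transcription factors of this list that passed, Atf3 and kay, rose less. Atf3 stood at 68.4, 77.8 and 77.2 CPM at day 10 and 186, 144 and 169 CPM at day 25, a log2 change of 1.16 ± 0.204 (SE, adjusted p = 0.0112). Its groups did not overlap, and it lost its call without day 10 replicate 1 or day 25 replicate 1 (adjusted p 0.078 to 0.0802). kay, which encodes Fos, the partner of Jun in AP-1, stood at 195, 154 and 172 CPM at day 10 and 292, 265 and 311 CPM at day 25, with a log2 change of 0.74 ± 0.170 (SE, adjusted p = 0.0437). No fit that left out one of these libraries kept kay past the threshold (adjusted p 0.0577 to 0.182), and it did not pass with DESeq2 size factors (adjusted p = 0.0554). The AP-1 target puc, a phosphatase that restrains JNK, had the same order of groups without passing (0.85, adjusted p = 0.0958). Members of the list with lower values, none of them past the threshold, included the neuronal transcription factors onecut (-0.53, adjusted p = 0.148) and Mef2 (-0.46, adjusted p = 0.183).

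Xrp1, a bZIP factor induced by p53 after DNA damage and during cell competition, had the lowest adjusted p in the list of DNA damage and repair genes. Its levels (FBgn0261113, 3R, 18914968 to 18926989) were 185, 170.1 and 239.9 CPM at day 10 and 461, 424 and 478 CPM at day 25. The lowest day 25 library, at 424 CPM, was well above the highest day 10 library. The log2 change was 1.20 ± 0.184 (SE, adjusted p = 0.0042), with an adjusted p of 0.00254 to 0.048 over the fits without single libraries. PolZ1, the catalytic subunit of the translesion polymerase zeta, was the other member to pass, at 18.7, 16.9 and 20.2 CPM at day 10 and 36.6, 27.8 and 29.8 CPM at day 25, with a log2 change of 0.75 ± 0.167 (SE, adjusted p = 0.0368). It was not past the threshold without day 10 replicates 1 or 2 or day 25 replicates 1 or 3 (adjusted p 0.0944 to 0.208). Of the 29 genes tested in this list, 2 were called, both higher, against 0.774% of all genes tested. The median was 0.19 and 22 had a positive log2 change, against 5021 of 9946 over all genes tested. With DESeq2 size factors 20 were positive, and with library size alone 24. Like the activity list, this list holds genes that the study chose on these libraries. So do the lists of phototransduction, chaperone, channel, synapse and Rh1 processing genes, and their counts are no independent evidence of a direction. The double-strand break genes mre11 (0.97, adjusted p = 0.0585), rad50 (0.52, adjusted p = 0.0643) and Ku80 (1.01, adjusted p = 0.171) had non-overlapping groups and did not pass. Outside the list, Rif1, which acts in replication timing and DNA repair, was higher by 1.23 on the log2 scale (adjusted p = 0.0357). Rif1 passed in 1 of the 6 fits that left out 1 library (adjusted p 0.0344 to 0.204).

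Subunits of the CCT chaperonin, the ring complex that folds actin and tubulin, rose in 2 of the 7 members tested. CCT5 stood at 23.0, 14.2 and 20.1 CPM at day 10 and 55.5, 44.0 and 35.5 CPM at day 25, a log2 change of 1.24 ± 0.245 (SE, adjusted p = 0.0207). CCT1 stood at 15.5, 13.1 and 12.7 CPM at day 10 and 28.9, 23.3 and 26.6 CPM at day 25, a log2 change of 0.94 ± 0.206 (SE, adjusted p = 0.0357). The day 25 libraries were higher than every day 10 library in both genes. CCT5 lost its call without day 10 replicates 1 or 2 or day 25 replicate 1 (adjusted p 0.0599 to 0.139), and CCT1 without day 10 replicates 1, 2 or 3 or day 25 replicates 1 or 3 (adjusted p 0.0574 to 0.179). All 7 subunits tested, a set picked after their values were seen, had positive log2 changes between 0.43 and 1.24. Among the remaining subunits, the largest changes were in CCT3 (0.92, adjusted p = 0.0869) and CCT4 (0.74, adjusted p = 0.0969), which did not pass. The wider list of 26 chaperonins and cytosolic chaperones had 2 members past the threshold, a median log2 change of 0.65 and 21 members with a positive change. Over all genes tested 1.05% passed and 5021 of 9946 had a positive change. The heat shock gene Hsp70Bbb was close to the floor of 3 counts, at 0.113, 0 and 0.145 CPM at day 10 and 2.19, 1.20 and 1.44 CPM at day 25 (adjusted p = 0.0557), and it entered the test only through day 25. Its copies are near-identical, so that reads shared between them were left out of the counts. The 18 genes of the unfolded protein response in the endoplasmic reticulum had no member past the threshold (3 at an unadjusted p under 0.05) and a median of 0.02, which became -0.01 with DESeq2 size factors.

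**Figure D2:**
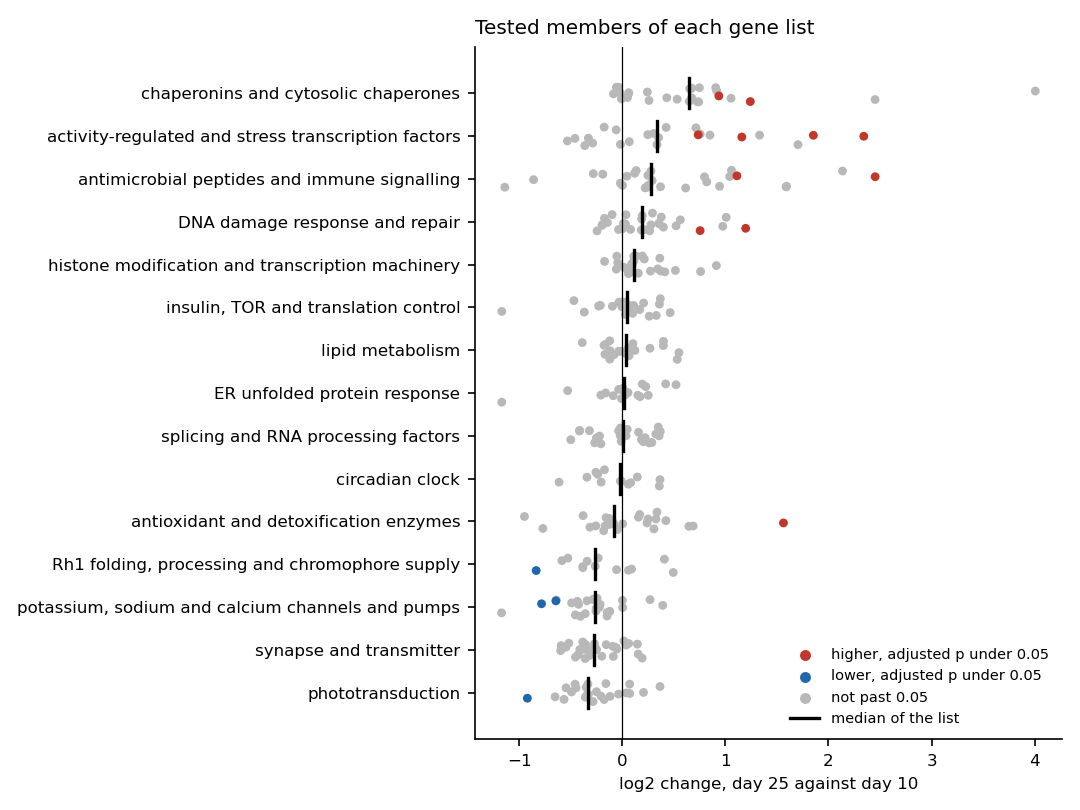
Log2 change from day 10 to day 25 of the tested members of 15 gene lists, one point per gene, with a bar at the median of each list. Chaperones lie highest with a median of 0.65 and phototransduction genes lowest with -0.33, and most members of every list are grey, which marks an adjusted p of 0.05 or more.

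TTLL12 and nompB were among the largest increases by the naming rule. TTLL12, a member of the tubulin-tyrosine-ligase-like family, stood at 19.1, 29.1 and 28.4 CPM at day 10 and 191, 99.0 and 155 CPM at day 25. Its day 25 libraries differed widely among themselves, and the lowest of them was still well above the highest day 10 library. The log2 change of TTLL12 (FBgn0033225, 2R, 7810068 to 7812028) was 2.53 ± 0.341 (SE, adjusted p = 0.00189), with an adjusted p of 0.00299 to 0.0209 when single libraries were left out. nompB, the fly IFT88, which carries cargo into cilia, stood at 5.52, 5.02 and 8.57 CPM at day 10 and 37.4, 20.1 and 52.1 CPM at day 25. Its log2 change was 2.49 ± 0.389 (SE, adjusted p = 0.00465), and the call held without each library in turn (adjusted p 0.00299 to 0.0483).

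Dhc62B, an axonemal dynein heavy chain, rose from a mean of 4.72 ± 1.57 CPM to 16.6 ± 4.89 CPM (SD, n = 3 each). Its log2 change was 1.81 ± 0.314 (SE, adjusted p = 0.00998). Oseg4, a subunit of the intraflagellar transport complex A, rose by 1.81 on the log2 scale (adjusted p = 0.0255). Both calls were less stable than those of TTLL12 and nompB. Dhc62B was not past the threshold without day 10 replicate 1 or day 25 replicate 1 (adjusted p 0.0693 to 0.0758), and Oseg4 without day 10 replicates 2 or 3 or day 25 replicates 1 or 3 (adjusted p 0.0511 to 0.108). In a set of 14 ciliary dynein and intraflagellar transport genes gathered after these values were seen, 3 were higher, none was lower, and the median was 0.42. Over all genes tested 0.774% were higher and the median was 0.00.

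nompB also serves as a marker of the mechanosensory neurons of Johnston's organ in the antenna, where the study found the driver active. The other 7 tested markers of those neurons did not pass and had negative log2 changes, among them nompA (-1.04, adjusted p = 0.294) and nompC (-0.96, adjusted p = 0.323), and the channel gene nan was at 0 in all 6 libraries. Summed over the list, the level was 194 to 247 CPM at day 10 and 217 to 228 CPM at day 25. nompB lies 360 bp from the pseudogene CR42546 on the same strand of 2L, which had higher values as well (2.62, adjusted p = 0.031). CR42546 stood at 0.450, 2.20 and 0.799 CPM at day 10 and 8.42, 2.71 and 10.1 CPM at day 25. With most day 10 libraries under 1 CPM, it entered the test through day 25, and its call is no support for a difference. It passed in 2 of the 6 fits that left out 1 library (adjusted p 0.0118 to 0.151).

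A cluster of cytochrome P450 genes on 2R rose. Cyp4p2 stood at 75.7, 78.2 and 71.6 CPM at day 10 and 215, 177 and 259 CPM at day 25. Cyp4p1 stood at 29.6, 43.4 and 40.5 CPM at day 10 and 106, 95.6 and 135 CPM at day 25. Cyp4p3 stood at 4.05, 4.08 and 6.25 CPM at day 10 and 17.4, 14.1 and 18.5 CPM at day 25. In each, the lowest day 25 library lay well above the highest day 10 library. Log2 changes were 1.53 ± 0.256 (SE, adjusted p = 0.00727) in Cyp4p2, 1.56 ± 0.261 (SE, adjusted p = 0.00727) in Cyp4p1 and 1.78 ± 0.264 (SE, adjusted p = 0.00324) in Cyp4p3. Only Cyp4p3 of the 3 kept its call without each library (adjusted p 0.00254 to 0.0346), while Cyp4p2 and Cyp4p1 lost theirs without day 10 replicate 1 (adjusted p = 0.0581 and 0.0705). The genes lie in a row on the same strand with gaps of 209 and 180 bp, and they are close relatives, so that pairs read across a gap or shared between copies may not be assigned to the right gene. All 3 also overlap hig, a gene on the other strand, and its part in their counts was not tested. The 70 P450 genes tested had a median of -0.08, which became 0.05 when scaled by library size alone. These 3 were the only ones called, against 1.05% of all genes tested.

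Among other enzymes, Cbs and Ugt35A1 rose. Cbs, the cystathionine beta-synthase that opens the path from homocysteine to cysteine, stood at 21.8, 26.5 and 26.4 CPM at day 10 and 51.5, 52.03 and 78.0 CPM at day 25, a log2 change of 1.27 ± 0.258 (SE, adjusted p = 0.0239), and was not past the threshold without day 10 replicates 1 or 2 or day 25 replicates 1 or 3 (adjusted p 0.0669 to 0.138). The UDP-glycosyltransferase Ugt35A1 rose by 1.32 on the log2 scale (adjusted p = 0.0393) and lost its call without day 10 replicates 1 or 2 or day 25 replicates 1, 2 or 3 (adjusted p 0.0547 to 0.167). Antioxidant and detoxification genes as a list had Cyp4p1 alone past the threshold among 27 tested, against 1.05% of all genes tested. Their median was -0.08, which became 0.03 when scaled by library size alone. Glutathione S-transferases had no member past the threshold among 23 tested (3 at an unadjusted p under 0.05).

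Among immune genes, the NF-kappaB factor Dif stood at 61.0, 52.6 and 87.3 CPM at day 10 and 162, 109.7 and 164 CPM at day 25, a log2 change of 1.11 ± 0.219 (SE, adjusted p = 0.0207). Groups did not overlap, and Dif was not past the threshold without day 10 replicates 1 or 2 or day 25 replicates 1 or 3 (adjusted p 0.0963 to 0.13). The antimicrobial peptide gene DptB was low in every library, at 0.563, 0.837 and 0.727 CPM at day 10 and 2.79, 6.25 and 2.76 CPM at day 25, and had a log2 change of 2.45 ± 0.554 (SE, adjusted p = 0.0393). All its day 10 libraries were under 1 CPM and all its day 25 libraries above, so that it entered the test only through the age at which it was high, and its call is no support for a difference. It passed in none of the fits that left out 1 of these libraries (adjusted p 0.0593 to 0.154). Of 27 immune genes tested, Dif passed, and DptB with the limit just given, against 1.05% of all genes tested, and the median was 0.28. The stress-induced humoral gene TotA had the opposite order of groups at 56.2, 58.9 and 64.0 CPM at day 10 and 27.4, 30.9 and 22.8 CPM at day 25 and did not pass (-1.14, adjusted p = 0.0556). Beyond the list, the thioester protein gene Tep3 (0.76, adjusted p = 0.0437) and the serpin gene Spn42Da (0.93, adjusted p = 0.0195) were higher, and Tep3 did not pass with DESeq2 size factors (adjusted p = 0.0554). Of the 6 fits that left out 1 library, Tep3 passed in 1 and Spn42Da in 2.

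The largest change by the naming rule was in CG9377, at 0.788, 3.14 and 1.16 CPM at day 10 and 9.42, 21.3 and 7.68 CPM at day 25, a log2 change of 2.93 ± 0.535 (SE, adjusted p = 0.0144) that was lost without day 10 replicate 1 (adjusted p = 0.0991). CG9759 stood at 5.97, 10.0 and 9.08 CPM at day 10 and 22.8, 55.3 and 50.8 CPM at day 25 and rose by 2.34 ± 0.376 (SE, adjusted p = 0.00509) on the log2 scale, a call lost without day 10 replicate 1 (adjusted p = 0.0599). Each had a day 25 library well below or above its other members, yet no overlap with day 10. The mucin gene Muc14A (FBgn0052580, X, 16009114 to 16061722) stood at 10.7, 6.80 and 9.52 CPM at day 10 and 28.7, 24.6 and 41.04 CPM at day 25, a log2 change of 1.80 ± 0.257 (SE, adjusted p = 0.00281), and held without each library (adjusted p 0.0043 to 0.0208). Its neighbour CG12698, 392 bp away on the same strand, rose as well (1.93, adjusted p = 0.0207). CG30108 and CG30109, 81 bp apart on 2R, rose by 1.71 on the log2 scale (adjusted p = 0.0357) and by 1.57 on the log2 scale (adjusted p = 0.016). Of the 6 fits that left out 1 library, CG12698 and CG30109 passed in 3 each and CG30108 in 1. CG10126 stood at 8.78, 6.59 and 14.4 CPM at day 10 and 31.4, 30.0 and 44.4 CPM at day 25, a log2 change of 1.81 ± 0.263 (SE, adjusted p = 0.00281). The pseudogene CR43281 stood at 4.84, 4.92 and 4.94 CPM at day 10 and 24.3, 16.9 and 23.2 CPM at day 25, a log2 change of 2.13 ± 0.308 (SE, adjusted p = 0.00281). In CR43281 the day 10 libraries were nearly level with each other.

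Further genes that rose were chosen after their values were seen, apart from cv-2, and stand for no group. cv-2, a secreted protein that binds BMP ligands, stood at 14.3, 15.8 and 21.2 CPM at day 10 and 71.7, 52.7 and 65.3 CPM at day 25, a log2 change of 1.88 ± 0.377 (SE, adjusted p = 0.0232) that was lost without day 10 replicates 1 or 2 or day 25 replicates 1 or 3 (adjusted p 0.0786 to 0.138). The FGF ligand gene bnl, known for guiding tracheal growth, stood at 21.1, 16.5 and 17.9 CPM at day 10 and 36.0, 32.5 and 42.1 CPM at day 25, a smaller change of 1.00 ± 0.157 (SE, adjusted p = 0.00468) that held without each library (adjusted p 0.00668 to 0.0341). Both genes had non-overlapping groups. raw, a negative regulator of JNK signalling, rose by 0.83 on the log2 scale (adjusted p = 0.02), and blow, an adaptor known from myoblast fusion, by 1.10 on the log2 scale (adjusted p = 0.00189). The blow call held without each library (adjusted p 0.00299 to 0.0177), while raw passed in 2 of the 6 fits (adjusted p 0.0156 to 0.13).

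**Figure D3:**
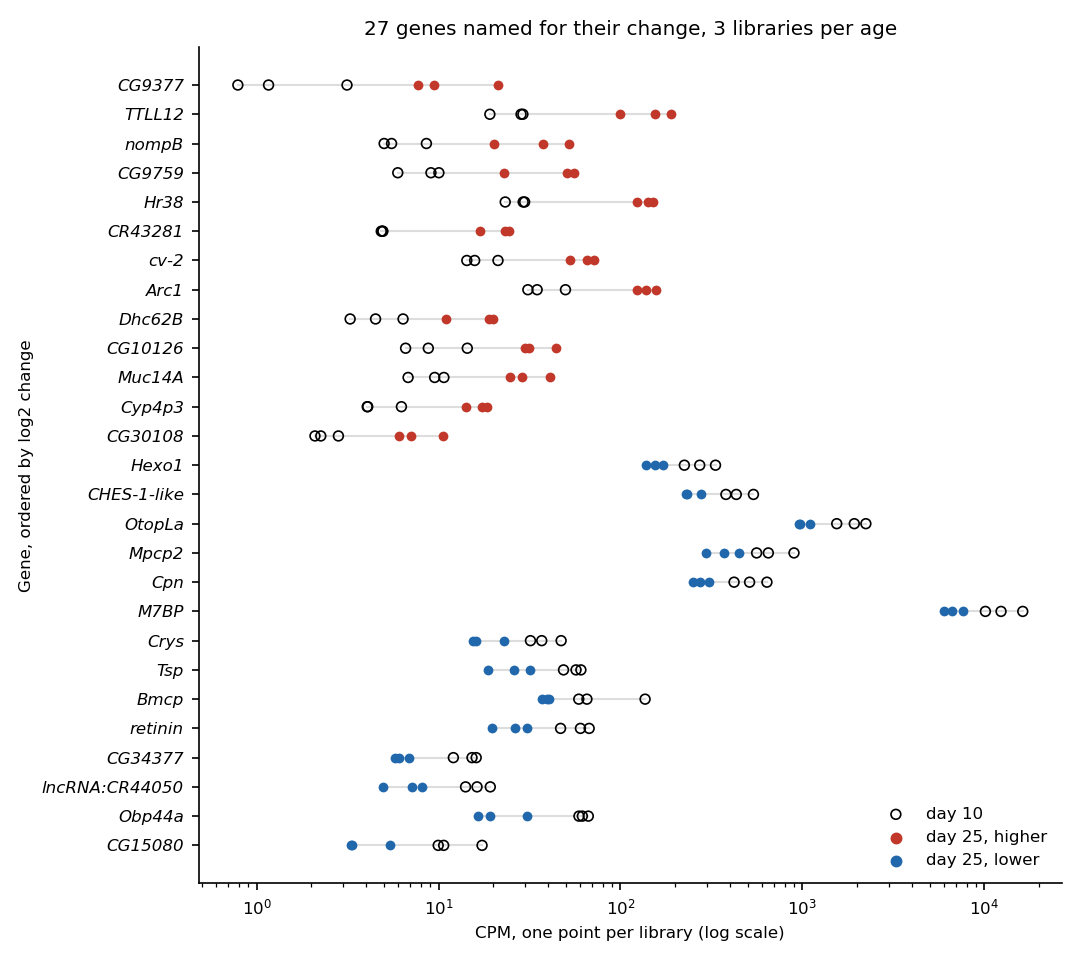
CPM (log scale) of 27 genes named for their change, with one point per library, open circles for the 3 libraries of day 10 and filled circles for the 3 of day 25. In every gene the day 25 libraries lie on one side of the day 10 libraries, to the right of them for the 13 higher genes and to the left for the 14 lower ones.

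Cpn and M7BP were among the genes that fell. Cpn, which encodes the calcium buffer calphotin of photoreceptors, stood at 639, 513 and 421 CPM at day 10 and 249, 307 and 274 CPM at day 25. The day 10 libraries were spread more widely than those of day 25, and all of them lay above the highest day 25 library. Its log2 change (FBgn0261714, 3R, 12162887 to 12166186) was -0.92 ± 0.140 (SE, adjusted p = 0.00383), and it held without each library (adjusted p 0.00146 to 0.0401). M7BP, the gene for a myosin 7a binding protein, stood at 16274, 12362 and 10142 CPM at day 10 and 6687, 5976 and 7677 CPM at day 25. It fell by 0.93 ± 0.174 (SE, adjusted p = 0.0169) on the log2 scale, a call lost without day 10 replicate 1 or day 25 replicates 1 or 2 (adjusted p 0.0559 to 0.121).

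Cpn was the only one of 25 phototransduction genes to pass, against 1.05% of all genes tested. The study itself singled out Cpn on these libraries. The list had 20 negative log2 changes, against 4925 of 9946 over all genes tested, and a median of -0.33. The transcripts of Rh1, its main arrestin and the TRP channel were not past the threshold. ninaE stood at 32075, 26579 and 23812 CPM at day 10 and 30309, 36446 and 28328 CPM at day 25 (0.21, adjusted p = 0.711). Arr2 stood at 15735, 12259 and 9781 CPM at day 10 and 12702, 15118 and 11876 CPM at day 25 (0.07, adjusted p = 0.892). trp stood at 16037, 12608 and 9629.9 CPM at day 10 and 12371, 14036 and 10905 CPM at day 25 (-0.04, adjusted p = 0.947). The groups overlapped in all 3 genes, with day 10 replicate 3 lowest. The next genes of the list by p were the phosphatidic acid phosphatase gene laza (-0.65, adjusted p = 0.0787), rtp (-0.55, adjusted p = 0.116) and the eye-specific G protein subunit Gbeta76C (-0.57, adjusted p = 0.136).

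Hexo1, a beta-hexosaminidase that trims sugars of Rh1, fell by 0.84 ± 0.195 (SE, adjusted p = 0.0479) on the log2 scale, at 273, 333 and 225 CPM at day 10 and 170.3, 155 and 139 CPM at day 25. Its groups did not overlap, and it passed without day 10 replicate 3 only, with an adjusted p of 0.0203. It was not past the threshold without day 10 replicates 1 or 2 or day 25 replicates 1, 2 or 3 (adjusted p 0.104 to 0.192) or when scaled by library size alone (adjusted p = 0.058). Hexo1 was the only one of 13 genes for Rh1 folding, processing and chromophore supply to pass, against 1.05% of all genes tested. The list had a median of -0.26. The tetraspanin gene Tsp42Ej, which acts in Rh1 degradation, stood at 337, 283 and 237 CPM at day 10 and 187, 226 and 158 CPM at day 25 and did not pass (-0.59, adjusted p = 0.0692).

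ctp, the light chain shared by dynein and other complexes, stood at 412, 406 and 353 CPM at day 10 and 217, 239 and 212 CPM at day 25. It fell by 0.81 ± 0.110 (SE, adjusted p = 0.00189) on the log2 scale and held without each library (adjusted p 0.00174 to 0.0208). OtopLa, an otopetrin-type proton channel, stood at 1929, 2234 and 1545 CPM at day 10 and 974, 962 and 1103 CPM at day 25, a log2 change of -0.91 ± 0.183 (SE, adjusted p = 0.0232), and lost its call without day 10 replicates 1 or 2 or day 25 replicates 1, 2 or 3 (adjusted p 0.0709 to 0.138). The forkhead factor gene CHES-1-like stood at 433, 538 and 379.9 CPM at day 10 and 233, 229 and 275 CPM at day 25, a log2 change of -0.87 ± 0.189 (SE, adjusted p = 0.0329), and lost its call without day 10 replicates 1 or 2 or day 25 replicates 1, 2 or 3 (adjusted p 0.0806 to 0.179). Rab32, which acts in the formation of pigment granules, fell by 0.74 on the log2 scale (adjusted p = 0.0207) and did not pass when scaled by library size alone (adjusted p = 0.0742). It passed in 4 of the 6 fits that left out 1 library.

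Both shakB and Inx2, of 5 innexin genes tested, fell, against 0.271% called lower over all genes tested. Innexins form the gap junctions of insects, and they were gathered as a set after their values were seen. shakB encodes the innexin of photoreceptor and lamina electrical coupling, and it stood at 320.1, 308 and 331 CPM at day 10 and 172, 163 and 223 CPM at day 25. The day 10 libraries lay close together and above the highest day 25 library. shakB (FBgn0085387, X, 20761071 to 20927050) fell by 0.78 ± 0.151 (SE, adjusted p = 0.0195) on the log2 scale and was not past the threshold without day 10 replicate 1 or day 25 replicates 1 or 2 (adjusted p 0.0647 to 0.132). Inx2 stood at 118, 100.1 and 137 CPM at day 10 and 69.8, 87.6 and 69.7 CPM at day 25, a log2 change of -0.64 ± 0.146 (SE, adjusted p = 0.0393), and lost its call without day 10 replicates 1 or 3 or day 25 replicates 1 or 3 (adjusted p 0.0766 to 0.208) and when scaled by library size alone (adjusted p = 0.133). The other 3 innexins tested did not pass, with log2 changes of -0.28 in Inx3, -0.28 in ogre and -0.27 in Inx7.

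The list of 26 potassium, sodium and calcium channels and pumps also held innexins. Its only members past the threshold were the innexins shakB and Inx2, given above, so no other member of the list passed. Over all genes tested 1.05% passed. In the list 22 had a negative log2 change, against 4925 of 9946 over all genes tested, and the median was -0.27. The potassium channel gene Sh had the largest change of the list, at 6568, 5995 and 3030.1 CPM at day 10 and 2139, 1966 and 2818 CPM at day 25. Its log2 change of -1.17 ± 0.289 (SE, adjusted p = 0.0587) did not pass, and day 10 replicate 3 lay near the day 25 libraries. The sodium pump gene Atpalpha did not pass either (-0.44, adjusted p = 0.16). Among 29 synapse genes none passed (9 at an unadjusted p under 0.05), 23 were negative and the median was -0.27. Closest to the threshold were Hdc, which makes the photoreceptor transmitter histamine, at 447, 427 and 325 CPM at day 10 and 265, 269 and 258 CPM at day 25 (-0.60, adjusted p = 0.0621), and the vesicle calcium sensor Syt1 (-0.59, adjusted p = 0.0703). Under scaling by library size alone the medians of the channel and synapse lists were -0.14 each, still negative.

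Both Crys and retinin, a pair of genes for proteins of the corneal lens, fell. Crys, the major crystallin that cone and pigment cells secrete into the corneal lens, stood at 47.2, 32.0 and 36.9 CPM at day 10 and 15.4, 16.1 and 23.0 CPM at day 25, a log2 change of -1.10 ± 0.216 (SE, adjusted p = 0.0207). retinin, another protein of the corneal lens, stood at 60.2, 46.9 and 67.3 CPM at day 10 and 26.2, 30.6 and 19.6 CPM at day 25, a log2 change of -1.19 ± 0.219 (SE, adjusted p = 0.0158). Groups did not overlap in either gene. Crys lost its call without day 10 replicate 1 or day 25 replicates 1 or 2 (adjusted p 0.0697 to 0.14), and retinin without day 10 replicate 1 or day 25 replicates 1 or 3 (adjusted p 0.0726 to 0.0889). Of 8 pigment and cone cell markers tested Crys alone passed, against 1.05% of all genes tested. The summed level of that list was 1034 to 1411 CPM at day 10 and 1746 to 3953 CPM at day 25 and followed the eye colour gene w, which stood at 1121, 1348 and 694 CPM at day 10 and 3673, 1415 and 2177 CPM at day 25 (1.20, adjusted p = 0.222) in flies whose UAS transgene carries a w marker. The odorant-binding protein gene Obp44a stood at 59.1, 61.7 and 66.6 CPM at day 10 and 16.5, 30.7 and 19.2 CPM at day 25, a log2 change of -1.50 ± 0.286 (SE, adjusted p = 0.0195), and lost its call without day 10 replicates 1 or 2 or day 25 replicates 1 or 3 (adjusted p 0.0532 to 0.134). Obp44a had been listed as a fat body and female-enriched marker, and it alone passed of the 6 such markers tested, against 1.05% of all genes tested. That list had 5 negative log2 changes, 1 positive one and a median of -0.54. Its summed level was 2048 to 3639 CPM at day 10 and 2268 to 3285 CPM at day 25, and its part in the results was not tested. Glial markers had none past the threshold among 9 tested (2 at an unadjusted p under 0.05).

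Bmcp, Mpcp2 and Men-b, which encode proteins of mitochondrial transport and metabolism, were lower, and no list of such nuclear genes was tested. Bmcp, a mitochondrial carrier related to uncoupling proteins, stood at 137, 59.0 and 65.4 CPM at day 10 and 37.0, 40.4 and 39.4 CPM at day 25, a log2 change of -1.16 ± 0.252 (SE, adjusted p = 0.0335). Day 10 replicate 1 was far above the other day 10 libraries in Bmcp. Mpcp2, the mitochondrial phosphate carrier, stood at 899, 649.9 and 560.4 CPM at day 10 and 369.8, 447 and 297 CPM at day 25, a log2 change of -0.92 ± 0.189 (SE, adjusted p = 0.0258), and the malic enzyme gene Men-b fell by 0.63 on the log2 scale (adjusted p = 0.0329). Bmcp was not past the threshold without day 10 replicate 1 or day 25 replicates 1, 2 or 3 (adjusted p 0.0773 to 0.179), Mpcp2 without day 10 replicates 1 or 2 or day 25 replicates 1 or 3 (adjusted p 0.0646 to 0.139) and Men-b without day 10 replicates 1 or 2 or day 25 replicates 1, 2 or 3 (adjusted p 0.0876 to 0.167). The ADP/ATP carrier gene sesB lay just outside the threshold (-0.60, adjusted p = 0.0514). No mitochondrially encoded gene passed among 15 tested (4 at an unadjusted p under 0.05), and their median was -0.17.

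The remaining named decreases were the matrix protein thrombospondin gene Tsp, at 57.0, 48.6 and 60.6 CPM at day 10 and 31.7, 26.0 and 18.7 CPM at day 25 (-1.11, adjusted p = 0.0239), CG15080 (-1.64, adjusted p = 0.0158), CG34377 (-1.21, adjusted p = 0.0227) and lncRNA:CR44050 (-1.30, adjusted p = 0.0284). Smaller decreases were seen in the immunoglobulin protein gene bdl (-0.76, adjusted p = 0.0271), the ubiquitin ligase gene Cbl (-0.75, adjusted p = 0.0316), the selectin-like gene fw (-0.75, adjusted p = 0.0393), the acyltransferase gene Agpat1 (-0.67, adjusted p = 0.0207) and CG6329 (-0.69, adjusted p = 0.00468). The genes FBgn0262742 and FBgn0262511, which the annotation used here does not name, were also lower. Of the decreases in this paragraph, only that of CG6329 held without each library of days 10 and 25. Scaled by library size alone, bdl (adjusted p = 0.0775), fw (adjusted p = 0.0616) and FBgn0262511 (adjusted p = 0.0845) did not pass.

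Several lists that are often followed in aging tissue had no member past the threshold. These were the 13 circadian clock genes (median -0.02, 0 at an unadjusted p under 0.05), the 26 splicing and RNA processing factors (median 0.00, 7), the 22 genes of insulin, TOR and translation control (median 0.04, 5), the 21 lipid metabolism genes (median 0.04, 3) and the 25 genes of histone modification and transcription (median 0.11, 2). The 79 cytosolic ribosomal protein genes had a median of 0.07 with 4 at an unadjusted p under 0.05, and the 66 mitochondrial ribosomal protein genes -0.12 with 3. Over all genes tested 1476 had an unadjusted p under 0.05, of which 751 were higher (7.55%) and 725 lower (7.29%). Scaled by library size alone, the medians of the clock and mitochondrial ribosomal lists turned to 0.10 and 0.03. With DESeq2 size factors the splicing median was -0.02.

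The levels of these genes at the other ages show where day 25 stood in the series, as a description, since the genes were chosen on days 10 and 25. Of the 77 higher genes, 49 had their highest mean of the 5 ages at day 40, 6 at day 30 and 22 at day 25. At days 20, 25 and 40, Arc1 averaged 88.9 ± 20.8, 139.8 ± 16.6 and 364 ± 102 CPM (SD, n = 3 each). Cyp4p2 averaged 132 ± 37.7, 217 ± 41.4 and 546 ± 193 CPM, and bnl 24.5 ± 1.11, 36.9 ± 4.85 and 82.5 ± 5.64 CPM at the same ages. In these genes the level at day 25 lay well below that at day 40. TTLL12 and Hr38 had their highest mean at day 25. At days 20, 25 and 40, TTLL12 averaged 81.9 ± 42.3, 148 ± 46.2 and 81.6 ± 16.2 CPM. Hr38 averaged 41.1 ± 23.9, 139 ± 13.9 and 64.4 ± 42.5 CPM. The translational repressor gene brat, which averaged 266 ± 15.2, 394 ± 45.6 and 277 ± 5.89 CPM at days 10, 25 and 40, and CG13305, with 68.4 ± 7.39, 153 ± 56.0 and 70.9 ± 13.7 CPM, were back near the day 10 mean by day 40.

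Of the 27 lower genes, 12 had their lowest mean at day 40, 5 at day 30 and 10 at day 25. Cpn averaged 291 ± 18.2, 277 ± 28.7 and 394 ± 8.63 CPM at days 20, 25 and 40 (SD, n = 3 each), so it was lowest at the middle ages. CG15080 averaged 12.7 ± 4.07, 4.02 ± 1.21 and 12.8 ± 3.29 CPM at days 10, 25 and 40. Crys averaged 22.9 ± 4.11, 18.2 ± 4.20 and 11.0 ± 1.08 CPM at days 20, 25 and 40, and shakB 266 ± 24.7, 186 ± 32.4 and 156 ± 28.4 CPM.

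**Figure D4:**
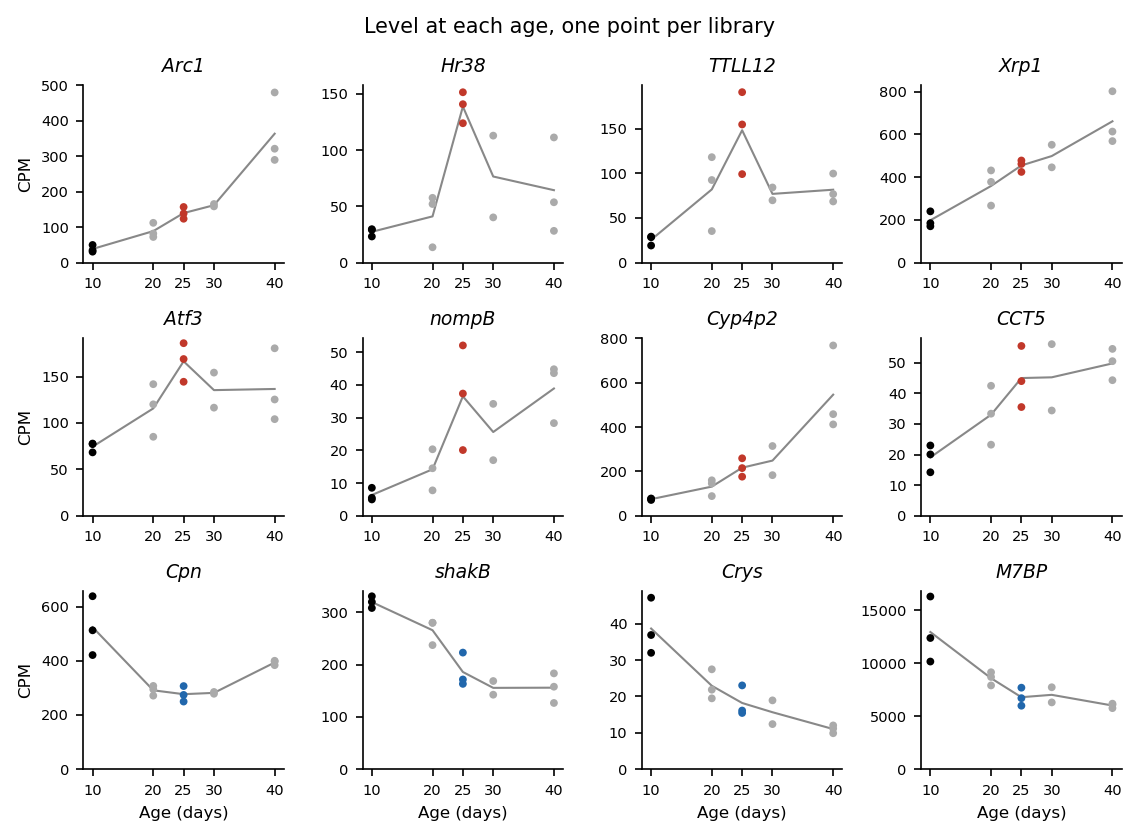
CPM of 12 genes at each of the 5 ages in days, one point per library (2 at day 30), with a line through the means and its own linear axis from 0 for each gene. Day 10 is black, day 25 is red for genes that rose and blue for genes that fell, and the other ages are grey. Arc1 and Cyp4p2 climb to day 40, while Hr38 and TTLL12 have their highest mean at day 25.

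Level and length of the called genes are given as medians with no test. Mean level was 12.6 CPM per kb of exon for higher genes, 41.8 for lower genes with a length in the annotation and 7.56 over all genes tested that have one. Span in the genome was 4082 bp for higher genes, 7293 bp for lower genes and 2787 bp over all. On chromosome 2R lay 22 of the 77 higher genes (28.6%, against 19.7% of all tested), among them Arc1, TTLL12, CCT5 and the Cyp4p genes, and on X lay 8 of the 27 lower genes (29.6%, against 16.4%), among them shakB, Inx2, ctp and OtopLa. An annotated gene or transposon insertion on the other strand overlapped 39 of the 77 higher genes (50.6%) and 10 of the 27 lower genes (37.0%), against 47.4% of all genes tested. Called genes also sat side by side. Apart from the pairs given above, PolZ1, TTLL12 and the lipase-like gene puml (0.66, adjusted p = 0.0437) rose within 1 stretch of 2R, with 9023 bp between PolZ1 and TTLL12 and 475 bp between TTLL12 and puml, which did not pass with DESeq2 size factors (adjusted p = 0.0569). At the edge of the threshold, the 8 genes just outside shared an adjusted p of 0.0514, among them the muscle actin gene Act57B (1.04), the collapsin response protein gene CRMP (0.85) and sesB, while Hexo1 was the last gene inside it with 0.0479.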

How the data were processed

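Whole-number read counts per gene were deposited by the authors, who trimmed paired reads with Trimmomatic, aligned them with TopHat to BDGP6 and counted pairs over exons with HTSeq in strand-specific mode, which leaves out pairs with several alignments or several genes. The table holds 17558 genes and 15 libraries. HTSeq's summary lines stayed out of library sizes and tests and equalled 60.7 to 103 no-feature pairs per 100 gene counts in the libraries of days 10 and 25. The authors' filtered counts served only as an alternative gene list, and their filtered CPM was not used.

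The test was edgeR's quasi-likelihood F test (version 4.0.16, R 4.3.3, glmQLFit and glmQLFTest, TMM scaling). The 14 libraries of all 5 ages shared one estimate of spread, since the study discarded day 30 replicate 3. CPM is TMM-scaled, and SE is the log2 change over the square root of F. Adjusted p is Benjamini-Hochberg over all 9946 genes, with a threshold of 0.05, and p-values measure the spread between these samples. In simulated counts with 200 genes changed, the test recovered 83% of 4-fold and 66% of 2-fold changes, and 3.25% of its calls were false. No simulated library was set off from its age as day 10 replicate 3 was, so the simulation cannot vouch for the calls here. Labels number table columns from 0 and the columns count from 1, so that for columns 1 and 2 the age alone was taken from the labels. Replicate numbers are those of the columns.

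By rule, the text names the 14 genes with the largest and the 14 with the smallest log2 change among those past the threshold, with a mean of at least 5 CPM and no overlap of groups. Of these, 1 higher gene is not reported here. Members of the gene lists past the threshold were named too, and other genes were chosen after their values were seen. The comparison, members and lists were chosen with earlier results of these data known. Symbols and positions came from Ensembl 115 and matched 17252 of the genes. Of 527 list symbols, 20 matched none. Alternatives changed scaling, test (DESeq2 1.42.0, limma-voom with limma 3.58.1), filter, libraries and covariates. Promoter sequences were not analysed here. Floors of 3 counts cover counting error only, as no molecular identifiers were used to tell copies of a molecule apart.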

Additional observations from a re-analysis of the deposited data

How the results depend on the processing

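No called gene changed direction under any of the 28 alternatives in which it was tested. A filter at 5 CPM tested 97 of the 104, the authors' gene list 102 and the rest 104. Groups overlapped in none of these genes, so leaving out 1 library could hardly reverse a change. The kept direction is therefore no support for the calls. The count of 104 (77 higher, 27 lower) moved by over 1.5 times as follows, with causes not tested unless the construction gives one. It was 198 with library size alone (175 higher), 400 with the DESeq2 test (190 higher, 210 lower), 460 with no filter on low counts over 15204 genes (210 higher, 250 lower) and 0 for changes tested beyond 2-fold with glmTreat (0 higher, 0 lower, 112 at an unadjusted p under 0.05). limma-voom gave 48 higher among 77. The 6 libraries of days 10 and 25 alone gave 75 lower among 153, of which 80 were shared with the 104. Without single libraries of the 14 the count ranged from 20 to 238, with 16 to 113 higher and 4 to 125 lower. Other ages mattered too, with 177 without day 40 replicate 3 and 143 without day 20 replicate 1. The share of mitochondrially encoded genes and the no-feature pairs per 100 gene counts stayed lower at day 25 without each library, with differences of -0.474 to -0.0130 percentage points and of -31.3 to -9.99.

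No pairing by replicate number was seen. Deviations of same-numbered libraries correlated at -0.0133, -0.166 and -0.106, and those of different-numbered libraries at -0.00829 to 0.143. With 3 libraries per age these values cannot exclude a shared batch. With the replicate number as a block, 14 libraries gave 50 genes (37 higher, 13 lower) and 6 libraries gave 60 (37 higher, 23 lower), so the block lowered the count. Depth limits low genes such as DptB, whose day 10 levels lay within a few times the floor of 3 counts.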

Other observations

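Further genes past the threshold fell outside the lists, and they were read out after their values were seen. Mvb12 and Ist1, which act with the ESCRT machinery that sorts membrane proteins for degradation, stood at 11.3, 7.95 and 12.6 CPM at day 10 and 22.7, 19.0 and 25.1 CPM at day 25 (1.06, adjusted p = 0.0127) and at 54.3, 55.5 and 44.8 CPM at day 10 and 103, 87.8 and 113 CPM at day 25 (0.98, adjusted p = 0.0437). The tetraspanin genes Tsp42En and Tsp42Ed rose by 1.51 on the log2 scale (adjusted p = 0.0195) and by 0.88 on the log2 scale (adjusted p = 0.0391), 2 of 23 tetraspanins tested, whose median was 0.04. Over all genes tested 0.774% were higher. The annexin gene AnxB9 stood at 68.0, 59.7 and 92.0 CPM at day 10 and 174, 156 and 174 CPM at day 25 (1.19, adjusted p = 0.0081), the paxillin gene Pax, which links integrins to the cytoskeleton, at 41.8, 40.8 and 59.3 CPM at day 10 and 74.8, 73.6 and 84.6 CPM at day 25 (0.71, adjusted p = 0.0357), and the cell surface gene dpr11 at 77.5, 92.9 and 73.0 CPM at day 10 and 158, 128 and 172 CPM at day 25 (0.91, adjusted p = 0.00675). In each of these genes the lowest day 25 library was above the highest day 10 library. Calls were lost for AnxB9 without day 10 replicate 1 (adjusted p = 0.0686), for dpr11 without day 10 replicate 1 (adjusted p = 0.0607) and for Pax without day 10 replicates 1 or 2 or day 25 replicates 1, 2 or 3 (adjusted p 0.0599 to 0.156). Of the 6 fits that left out 1 library of days 10 or 25, the others passed as follows, Tsp42En in 3 (adjusted p 0.0209 to 0.0963), Mvb12 in 2 (adjusted p 0.00743 to 0.0687), Tsp42Ed in 1 (adjusted p 0.00928 to 0.179) and Ist1 in 0 (adjusted p 0.0559 to 0.179).

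Of 33 aminoacyl-tRNA synthetases tested, which load amino acids onto tRNA, AspRS (0.84, adjusted p = 0.0357) and beta-PheRS (1.03, adjusted p = 0.0335) were called higher and none lower. Over all genes tested 0.774% were higher and 0.271% lower. The set was gathered after its values were seen and had a median of 0.11. It had 17 positive and 16 negative log2 changes, with 4 genes each way at an unadjusted p under 0.05. TAF1B, a factor of RNA polymerase I, stood at 5.18, 5.13 and 5.45 CPM at day 10 and 11.1, 12.0 and 11.8 CPM at day 25 (1.14, adjusted p = 0.0207), with little spread within an age. Among transcripts that encode no protein, lncRNA:CR31781 stood at 17.0, 13.6 and 15.6 CPM at day 10 and 34.9, 41.9 and 44.6 CPM at day 25, a log2 change of 1.39 ± 0.162 (SE, adjusted p = 0.000716) that held without each library (adjusted p 0.00174 to 0.0127). lncRNA:CR40469 stood at 132, 151 and 108 CPM at day 10 and 254, 288 and 275 CPM at day 25 (1.06, adjusted p = 0.0127), and the piRNA precursor lncRNA:flam at 2.36, 2.93 and 1.82 CPM at day 10 and 4.68, 7.30 and 7.68 CPM at day 25 (1.47, adjusted p = 0.0379). flam is made of transposon remnants, so that reads shared with other copies were left out of its count. The neuropeptide gene Orcokinin (0.97, adjusted p = 0.0393), the calpain gene CalpB (0.54, adjusted p = 0.0393) and the exonuclease gene Dis3l2 (0.55, adjusted p = 0.0393) rose as well. Of the 6 fits without 1 library, lncRNA:CR40469 passed in 4, Orcokinin in 2, TAF1B, beta-PheRS and Dis3l2 in 1 each, and AspRS, CalpB and lncRNA:flam in 0, for which the lowest adjusted p was 0.0516, 0.0532 and 0.0527. With DESeq2 size factors Orcokinin, CalpB, Dis3l2 and Ist1 were not past the threshold (adjusted p 0.0502 to 0.0554).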
